A study of Homo sapiens with 4 samples.

Results

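The collagen genes are the 44 genes, of 60623 in the deposited count files, whose symbol is COL, a number, A and a number, each of which codes for 1 alpha chain of a collagen. The rule used names alone and no measured value, but it was chosen with earlier results of these data known. Their mRNA was followed in BICR10 cells, an established human line from a cancer of the head and neck, after lentiviral transduction with a control hairpin (shControl, 2 libraries) or with a hairpin against YEATS2, a reader of histone acylation (shYEATS2, 2 libraries). All libraries came from this single line and from polyA RNA. The labels do not say which YEATS2 hairpin each library carried, nor that the libraries came from separate cultures, so the p-values measure the spread between these libraries, which may be technical.

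Collagens are the main structural proteins of the extracellular matrix, and their chains wind around each other into a rope-like helix. Fibrillar collagens (types I, II, III, V, XI, XXIV and XXVII) build the banded fibrils of connective tissue, and FACIT collagens, the fibril-associated ones with interrupted helices, sit on those fibrils. Type IV forms the network of basement membranes, type VI forms beaded filaments around cells, and the transmembrane collagens span the plasma membrane. In squamous epithelium, types IV, VII and XVII belong to the zone that holds the epithelium to the tissue beneath, while types I and III are mostly made by stromal cells or by cells that have taken on mesenchymal features.

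The totals of counts on genes ranged from 11334133 to 47297970, and both shYEATS2 libraries were the shallower ones, so depth cannot be told apart from the knockdown. Levels are given as CPM, the counts scaled by TMM to a common library size. YEATS2 stood at 66.1 and 66.7 CPM in shControl and at 29.2 and 29.1 CPM after knockdown, a log2 fold change of −1.19 (SE 0.08). The label of an epithelial cancer was only partly met by the 9 squamous epithelial markers. KRT8 and KRT18, keratins of simple epithelia, were at 264 to 269 and 110 to 111 CPM in shControl, whereas TP63, the master regulator of squamous cells, was at most 0.255 CPM in any library, and KRT14, EPCAM and CDH1 lay between 0.318 and 1.23 CPM in shControl. KRT5, the partner keratin of KRT14, was at 16.4 and 14.95 CPM, and the cadherin CDH3 at 25.2 and 24.9 CPM. Of the 9 fibroblast markers, LUM, DCN and DPT were at 442 and 469, 316 and 327, and 68.0 and 60.2 CPM in shControl, while THY1 was at most 0.287 CPM and TCF21 was at 0 in all libraries. Of the endothelial markers, KDR was at 33.8 and 35.1 CPM and PECAM1 at 1.61 and 1.24 CPM in shControl, and CLDN5 was at 0 in all libraries. Of the immune markers, CD14 was at 1.74 and 1.53 CPM in shControl, and CD3E and CD68 were at 0 in all libraries.

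Collagen mRNA fell as a whole after YEATS2 knockdown. The 44 genes together took 1.363% and 1.322% of all gene counts in shControl, and 0.687% and 0.639% of them in shYEATS2. The summed level was 14215 and 13929 CPM in shControl, and 6528 and 6147 CPM in shYEATS2. Both shYEATS2 libraries lay under both shControl libraries, and the gap was far wider than the spread within a condition. In bulk samples such as these, fewer cells of a type and less RNA per cell cannot be told apart.

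Of the 44 genes, 33 had enough counts for a test. Among them 16 were lower and 8 were higher in shYEATS2, by edgeR's quasi-likelihood test, at a threshold of 0.05 on the p adjusted by Benjamini-Hochberg over the 17058 genes with enough counts. These are 48.5% and 24.2% of the tested collagens, beside 23.6% of all tested genes called lower and 22.6% called higher. The share called lower was thus above the background and the share called higher was close to it. This is a description, since the set was chosen with earlier results of these data known. DESeq2 called 5 collagens higher and 16 lower. Its calls were also fewer over all 17058 genes, with 2820 higher and 2949 lower in place of 3857 and 4019. With all 4 libraries kept, 15 or 16 collagens were lower in every alternative. Scaling by library totals alone gave 15 lower and 8 higher collagens, among 2567 lower and 5441 higher genes in place of 4019 and 3857. A fall of at least 2-fold was called for 7 collagens (3.7% of all tested genes) and a rise of at least 2-fold for 6 (5.99% of all tested genes). For 18 collagens both knockdown values were below both control values (36.3% of all tested genes), and for 9 they were above (35.3% of all tested genes). The median log2 fold change was −0.28 over the tested collagens and −0.01 over all tested genes. Of the tested genes, 29 met the filter on low counts, about 0.313 CPM, in both libraries of both conditions. COL4A3, COL9A1 and COL13A1 met it only in the shYEATS2 libraries, so these genes could enter the test only by being higher there.

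**Figure D1:**
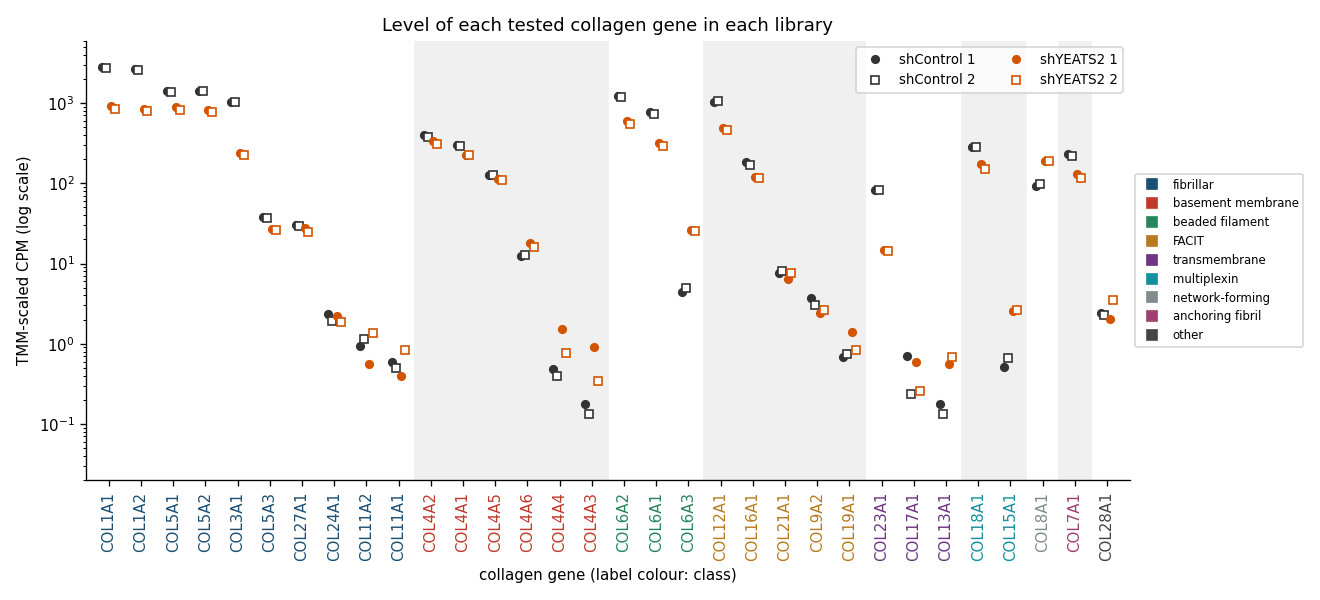
TMM-scaled CPM on a log axis for 32 of the 33 tested collagen genes in each of the 4 libraries, shControl in dark and shYEATS2 in orange, ordered by class and level. COL9A1 is not drawn because it had 0 counts in both shControl libraries. The abundant genes COL1A1, COL1A2 and COL3A1 sit lower in both shYEATS2 libraries, and COL6A3 and COL8A1 sit higher.

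The calls in either direction were unevenly spread over the levels. Of the 20 collagens with a mean of at least 10 CPM, 16 were lower and 3 were higher, namely COL4A6, COL6A3 and COL8A1. COL6A3 was under 10 CPM in both shControl libraries and reached this mean only through shYEATS2. Among all tested genes at that level, 32.1% were lower and 25.5% were higher. Of the 13 collagens under 10 CPM, 0 were lower and 5 were higher. Among all tested genes under 10 CPM, 13.2% were lower and 19.1% were higher, so lower calls were scarcer there in general. COL4A3, COL9A1 and COL13A1, which are 3 of the 5 higher collagens, could enter the test only by being higher. The other 2 are COL4A4 and COL15A1, among the 9 genes under 10 CPM that met the filter in both conditions. DESeq2 and limma-voom also called 0 of the 13 lower, and edgeR's unadjusted p was under 0.05 in that direction for 1, COL9A2. Over the 29 collagens that met the filter in both conditions, the log2 fold change went down with the log2 mean CPM (Pearson's r = −0.616, Spearman's rho = −0.754) and with the log2 mean CPM per kb of exon (r = −0.676). Over the 20 genes at 10 CPM or more, r was −0.578 by CPM and −0.691 per kb. These are descriptions across genes that share the same 4 libraries, and genes are not independent replicates.

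**Figure D2:**
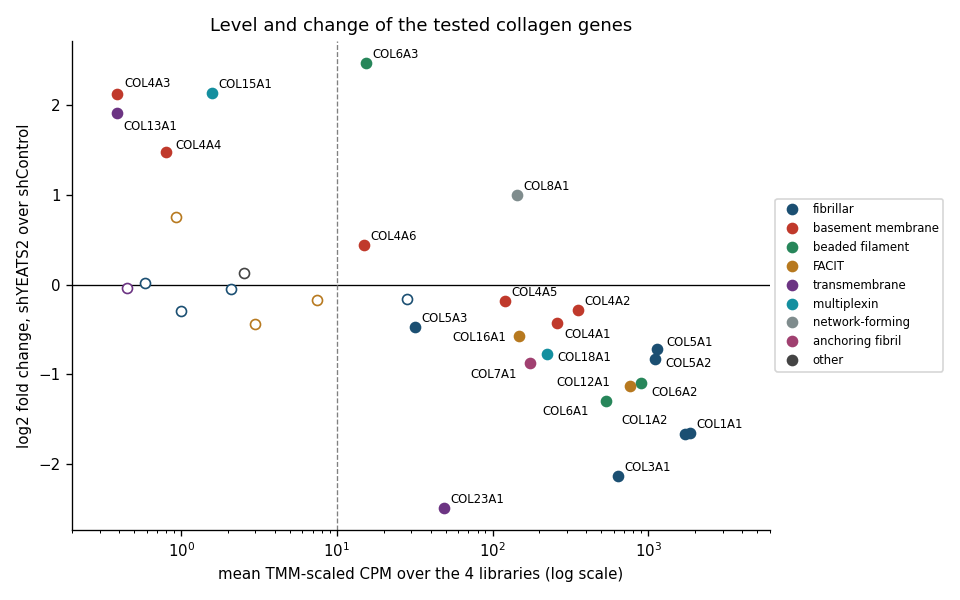
Log2 fold change of shYEATS2 over shControl against the mean TMM-scaled CPM over the 4 libraries on a log axis, 1 point for each tested collagen gene except COL9A1, coloured by class and filled where the adjusted p was under 0.05. To the right of the dashed line at 10 CPM, 16 filled points lie under 0 and 3 lie above it.

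The fibrillar class held most of the collagen mRNA and lost the most of it in summed CPM. The transmembrane class lost more in proportion, from 83.2 to 15.7 CPM in sum. That sum is almost wholly COL23A1, which went from 82.5 to 14.7 CPM, and the class median was −0.04. Of the 11 fibrillar genes, 10 were tested, 6 were lower and 0 were higher (also 0 by DESeq2, by limma-voom and at an unadjusted p under 0.05 in edgeR), with a median log2 fold change of −0.60. The summed level of the class went from 9339 ± 119 CPM (SD, n = 2) to 3656 ± 157 CPM (SD, n = 2). The 6 lower genes are the chains of types I, III and V, which copolymerize in the same fibrils.

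COL1A1 and COL1A2 code for the chains of type I collagen, the main collagen of skin, bone and tendon. COL1A1 (ENSG00000108821, chromosome 17 from 50184101 to 50201632 on the minus strand, GRCh38) was at 2845 and 2747 CPM in shControl and at 927 and 855 CPM in shYEATS2. COL1A2 (chromosome 7 from 94394895 to 94431227, plus strand) was at 2623 and 2609 CPM in shControl and at 847 and 797 CPM in shYEATS2. The groups were far apart for both genes, and the chains fell by nearly the same amount. The log2 fold changes were −1.65 (SE 0.06, adjusted p = 2.4e-34) and −1.67 (SE 0.06, adjusted p = 7.0e-35) by edgeR. After knockdown, 31.9% of the control level of COL1A1 and 31.4% of that of COL1A2 remained.

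COL3A1, the single chain of type III collagen, which mixes with type I in elastic tissues and in wounds, changed more. It was at 1043 and 1026 CPM in shControl and at 242 and 227 CPM in shYEATS2, with no overlap. Its log2 fold change was −2.14 (SE 0.06, adjusted p = 1.4e-40 by edgeR), and 22.7% of the control level remained. Among the 9365 genes whose mean was 10 CPM or more, it had the 16th largest fall, while COL1A2 had the 36th and COL1A1 the 37th.

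Type V collagen regulates the start and the width of type I fibrils. COL5A1 was at 1433 and 1390 CPM in shControl and at 881 and 830 CPM in shYEATS2, a log2 fold change of −0.72 (SE 0.06). COL5A2 was at 1408 and 1414 CPM in shControl and at 812 and 781 CPM in shYEATS2, a change of −0.82 (SE 0.06). COL5A3, a minor chain, was at 37.7 and 36.4 CPM in shControl and at 27.2 and 25.9 CPM in shYEATS2, a change of −0.47 (SE 0.08). Thus the type V chains were lower in every shYEATS2 library than in either shControl library, by a smaller amount than the type I and III chains. COL5A2 lies next to COL3A1 on chromosome 2, on the opposite strand with 19151 bases between the genes, and their 95% intervals of the log2 fold change, −0.94 to −0.71 and −2.26 to −2.02, do not meet.

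The remaining fibrillar genes were scarce or differed little. COL27A1, found mostly in cartilage, was at 30.2 and 29.2 CPM in shControl and at 27.9 and 24.7 CPM in shYEATS2, a log2 fold change of −0.16 (95% interval −0.34 to 0.02) that did not pass the test. COL24A1 was at 2.36 and 1.93 CPM in shControl and at 2.21 and 1.87 CPM in shYEATS2, so its groups overlapped. Its log2 fold change was −0.05 (95% interval −0.57 to 0.47). The type XI chains, which nucleate cartilage fibrils, were near 1 CPM or below: COL11A2 had a log2 fold change of −0.30 (95% interval −1.09 to 0.50) and COL11A1 of 0.02 (95% interval −1.001 to 1.03). COL2A1, the cartilage collagen, had 0 counts in all libraries.

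**Figure D3:**
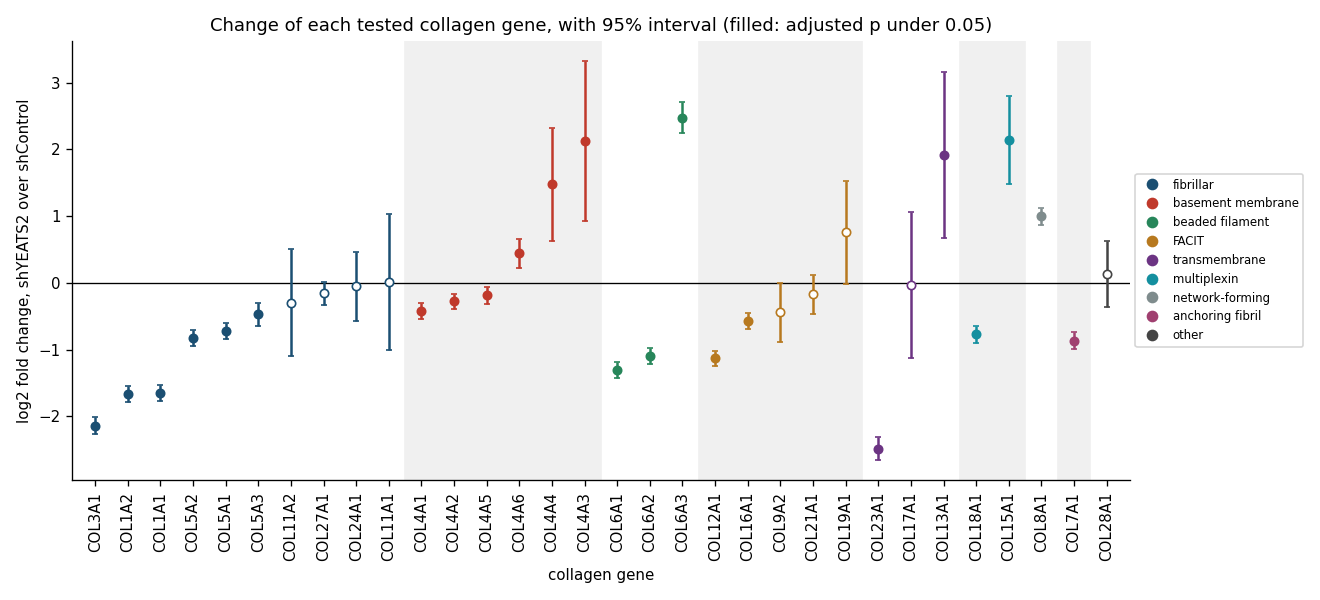
Log2 fold change of shYEATS2 over shControl for each tested collagen gene except COL9A1, with the 95% interval from edgeR's quasi-likelihood test as bars, coloured by class and filled where the adjusted p was under 0.05. The fibrillar genes run from −2.14 to 0.02, and within the beaded filament class COL6A1 and COL6A2 lie under −1 while COL6A3 lies at 2.47.

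Type VI collagen, the beaded filament class, moved in opposite directions within the genes of 1 protein. Its usual form joins the chains of COL6A1, COL6A2 and COL6A3. COL6A1 (chromosome 21 from 45981770 to 46005050) was at 777 and 740 CPM in shControl and at 320 and 294 CPM in shYEATS2, a log2 fold change of −1.30 (SE 0.06, adjusted p = 4.1e-29 by edgeR). COL6A2, its neighbour on the same strand (chromosome 21 from 46098112 to 46132848), was at 1242 and 1199 CPM in shControl and at 593 and 548 CPM in shYEATS2, a change of −1.09 (SE 0.06, adjusted p = 1.7e-25). By the fitted fold changes, 40.5% and 46.8% of the control levels remained. COL6A3 (chromosome 2 from 237324003 to 237414328, minus strand) went the other way, from 4.41 and 5.00 CPM in shControl to 26.2 and 25.8 CPM in shYEATS2. Its log2 fold change of 2.47 (SE 0.12, adjusted p = 1.3e-28 by edgeR) was the 8th largest rise among the same 9365 genes. COL6A3 reached the mean of 10 CPM needed for that ranking only through its shYEATS2 values, so the rank is not independent of the rise. COL6A5 had 0 counts in all libraries, and COL6A6 had 0 in shControl and 1 and 2 in shYEATS2.

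The start regions of the pair that diverged are shown because COL6A2 and COL6A3 serve the same filament. Each sequence holds the 250 bases before the RefSeq start site (GRCh38.p14), read 5′ to 3′ on the strand of the gene, and capitals mark matches on either strand to GGGCGG (the GC box, bound by SP1), CCAAT and TATAAA (the TATA box).
COL6A2, chr21:46097862-46098111, plus strand: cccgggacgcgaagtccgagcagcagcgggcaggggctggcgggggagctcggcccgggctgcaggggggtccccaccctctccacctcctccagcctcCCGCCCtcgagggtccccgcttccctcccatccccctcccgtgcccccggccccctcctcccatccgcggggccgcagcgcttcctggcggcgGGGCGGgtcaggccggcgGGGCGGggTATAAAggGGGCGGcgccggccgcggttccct
COL6A3, chr2:237414165-237414414, minus strand: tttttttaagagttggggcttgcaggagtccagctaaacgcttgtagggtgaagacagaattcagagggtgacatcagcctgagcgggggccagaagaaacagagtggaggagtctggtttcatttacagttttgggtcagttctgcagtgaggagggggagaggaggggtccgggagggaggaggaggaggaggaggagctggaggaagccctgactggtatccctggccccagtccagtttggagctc
The COL6A2 stretch is 79.6% G and C, with 4 GC boxes and 1 TATA box. The COL6A3 stretch is 56.0% G and C and holds none of the 3 motifs. Over all 35116 RefSeq promoter windows of 300 bases, 45.0% hold GGGCGG, 34.6% hold CCAAT and 11.5% hold TATAAA on either strand.

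The basement membrane class split between its abundant and its scarce members. All 6 genes of type IV were tested, and 3 were lower and 3 higher, with a median log2 fold change of 0.13. This median turned to −0.18 over the 5 genes that met the count filter in both conditions, to −0.23 with at least 10 counts in every library and to −0.20 with thinned counts. The summed level was 828 ± 16.4 CPM in shControl (SD, n = 2) and 673 ± 23.0 CPM after knockdown (SD, n = 2). COL4A1 and COL4A2 form the network found in nearly all basement membranes. COL4A1 was at 304 and 293 CPM in shControl and at 222 and 223 CPM in shYEATS2, a change of −0.43 (SE 0.06). COL4A2 was at 395 and 382 CPM in shControl and at 333 and 306 CPM in shYEATS2, a change of −0.28 (SE 0.06). The groups did not overlap for either gene, and the falls were far smaller than those of the type I chains.

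COL4A5 and COL4A6 pair in the type IV network of skin and smooth muscle basement membranes. COL4A5 was at 127.6 and 127.7 CPM in shControl and at 114 and 111 CPM in shYEATS2, a change of −0.18 (SE 0.06, adjusted p = 0.0129 by edgeR). This call was lost with scaling by library totals alone, with counts thinned to the smallest total and without either shControl library (adjusted p from 0.0011 to 0.514 over all alternatives). COL4A6 was at 12.6 and 12.9 CPM in shControl and at 18.1 and 16.2 CPM in shYEATS2, a change of 0.44 (SE 0.11, adjusted p = 0.00045). COL4A3 and COL4A4, chains of the kidney and lung basement membranes, had 4 to 39 counts in each library. COL4A3 had 8 and 5 counts in shControl and 23 and 4 in shYEATS2, a log2 fold change of 2.13 (SE 0.60). COL4A4 had 22 and 15 counts in shControl and 39 and 9 in shYEATS2, a change of 1.47 (SE 0.43). Without shYEATS2 library 1 the values were 1.09 and 0.76 and neither passed the test. Neither was called by DESeq2, and COL4A3 also lost its call without shControl library 2. Of the exon bases of COL4A3, 6.82% are shared with MFF-DT on the other strand, and the strand setting of the counting is not given in the sources used here.

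The type IV genes stand in pairs that start back to back from 1 region, so each pair has a common start region. COL4A1 and COL4A2 start 127 bases apart on chromosome 13 and both fell. COL4A3 and COL4A4 start 419 bases apart on chromosome 2 and both were called higher, from few counts. COL4A5 and the nearer of the COL4A6 start sites lie 380 bases apart on chromosome X, and these partners changed in opposite directions. The fall of COL4A5 was small (−0.18) and lost its call in some alternatives, as given above. The bases between the start sites of COL4A1 and COL4A2, and the 250 bases before the start site of COL4A5, which face COL4A6, are shown as the region of a pair that moved together and of a pair that did not, with the same motifs in capitals.
COL4A1 to COL4A2, chr13:110307158-110307283, plus strand: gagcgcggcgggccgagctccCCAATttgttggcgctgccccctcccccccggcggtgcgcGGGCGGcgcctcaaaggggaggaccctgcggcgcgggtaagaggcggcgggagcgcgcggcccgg
COL4A5, chrX:108439588-108439837, plus strand: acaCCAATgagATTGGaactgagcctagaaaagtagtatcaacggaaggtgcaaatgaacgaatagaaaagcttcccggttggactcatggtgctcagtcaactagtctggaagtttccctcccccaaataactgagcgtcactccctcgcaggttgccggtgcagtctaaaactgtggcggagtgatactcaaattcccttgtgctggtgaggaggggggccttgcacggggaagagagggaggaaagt
The stretch between COL4A1 and COL4A2 is 80.2% G and C, with 1 GC box and 1 CCAAT match. The stretch before COL4A5 is 51.2% G and C, with 0 GC boxes and 2 CCAAT matches.

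Among the 10 FACIT genes, 6 were tested, 2 were lower and 1 was higher, and the median log2 fold change was −0.31. The 1 higher gene, COL9A1, met the count filter only in shYEATS2, and the median was −0.44 without it, −0.13 without shControl library 2 and −0.026 with no filter. The summed level was 1233 ± 0.623 CPM in shControl (SD, n = 2) and 606 ± 15.9 CPM after knockdown (SD, n = 2), most of it from COL12A1. COL12A1, which binds type I fibrils and is made under mechanical load, was at 1037 and 1050 CPM in shControl and at 485 and 466 CPM in shYEATS2, a log2 fold change of −1.13 (SE 0.06, adjusted p = 1.3e-26 by edgeR). COL16A1 was at 183 and 171 CPM in shControl and at 121 and 117 CPM in shYEATS2, a change of −0.57 (SE 0.06). For both genes the shYEATS2 libraries lay below the shControl libraries. COL9A1, a chain of the type IX collagen of cartilage, had 0 and 0 counts in shControl and 19 and 5 in shYEATS2, at least 17.9-fold higher when the shControl libraries together are given a floor of 3 counts. COL9A2, another type IX chain, was at 3.75 and 3.07 CPM in shControl and at 2.45 and 2.63 CPM in shYEATS2, a change of −0.44 (95% interval −0.89 to −0.00066) with an adjusted p of 0.096 by edgeR. COL21A1 was at 7.54 and 8.07 CPM in shControl and at 6.47 and 7.64 CPM in shYEATS2, a change of −0.17 (95% interval −0.46 to 0.12), with overlapping groups. COL19A1 was near 1 CPM, with a change of 0.76 (95% interval −0.01 to 1.53) that did not pass the test.

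The transmembrane class held the largest fall of all tested collagens. COL23A1 (chromosome 5 from 178237476 to 178590393, minus strand), a membrane collagen that can be shed from the cell surface, was at 83.3 and 81.8 CPM in shControl and at 14.8 and 14.5 CPM in shYEATS2. Its log2 fold change was −2.49 (SE 0.09, adjusted p = 4.9e-36 by edgeR), 17.8% of the control level remained, and it had the 12th largest fall among the 9365 genes at 10 CPM or more. The libraries within each condition differed by under 2 CPM. COL13A1, found at cell contacts and neuromuscular junctions, had 8 and 5 counts in shControl and 14 and 8 in shYEATS2, a change of 1.91 (SE 0.62, adjusted p = 0.0086) that was lost with DESeq2 and without any 1 of the 4 libraries. COL17A1, the hemidesmosomal collagen of basal keratinocytes, had only 32, 9, 15 and 3 counts, and its change of −0.04 (95% interval −1.13 to 1.06) could not be told from 0. COL25A1 had 0 counts in all libraries. The 250 bases before the start site of COL23A1 are shown because this gene fell the most, with the motifs in capitals as above.
COL23A1, chr5:178590394-178590643, minus strand: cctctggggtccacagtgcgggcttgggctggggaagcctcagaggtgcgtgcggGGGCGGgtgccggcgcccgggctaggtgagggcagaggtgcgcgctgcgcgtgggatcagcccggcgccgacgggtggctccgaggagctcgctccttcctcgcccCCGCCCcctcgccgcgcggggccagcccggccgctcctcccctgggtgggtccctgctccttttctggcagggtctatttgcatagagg
This stretch is 74.4% G and C and holds 2 GC boxes and neither of the other motifs.

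The remaining classes hold 1 to 3 genes each. COL18A1, a multiplexin of basement membranes whose end fragment is endostatin, was at 284 and 281 CPM in shControl and at 176 and 153 CPM in shYEATS2, a log2 fold change of −0.77 (SE 0.06). Of its exon bases 18.47% are shared with SLC19A1 on the other strand, so part of its counts is uncertain if strand was not used. COL15A1, the other multiplexin, rose from 0.507 and 0.662 CPM to 2.53 and 2.63 CPM, a change of 2.14 (SE 0.33, adjusted p = 1.0e-07). COL8A1, a short-chain collagen of the network under the endothelium, was at 93.8 and 97.3 CPM in shControl and at 189 and 192 CPM in shYEATS2, a change of 0.995 (SE 0.06, adjusted p = 3.1e-22). Its shYEATS2 values did not overlap with the shControl values. COL7A1, which forms the anchoring fibrils under the epidermis, was at 232 and 217 CPM in shControl and at 129 and 116 CPM in shYEATS2, a change of −0.87 (SE 0.06, adjusted p = 4.9e-19). COL28A1 was at 2.40 and 2.28 CPM in shControl and at 2.01 and 3.48 CPM in shYEATS2, a change of 0.13 (95% interval −0.36 to 0.63), with the shYEATS2 libraries on either side of the shControl libraries.

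The 11 genes that could not be tested were COL2A1, COL6A5, COL25A1 and COL26A1, with 0 counts in all libraries, and COL6A6, COL8A2, COL9A3, COL10A1, COL14A1, COL20A1 and COL22A1, with 0 to 14 counts in each library. At this depth nothing can be said about a change in them.

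The make-up of the collagen mRNA shifted away from the fibrillar class. For this, counts were divided by the merged exon length of each gene, so that levels can be set against each other per kb. The fibrillar class made up 63.9% and 64.3% of collagen mRNA in shControl and 57.0% and 57.2% in shYEATS2. Within it, the share of COL1A1 went from 19.3% ± 0.168 to 14.1% ± 0.189, that of COL1A2 from 15.02% ± 0.184 to 10.8% ± 0.00725, and that of COL3A1 from 9.50% ± 0.0448 to 4.94% ± 0.00285 (SD, n = 2 each). The type V chains took a larger share although their mRNA had fallen, with COL5A2 going from 12.0% ± 0.223 to 15.5% ± 0.264 and COL5A1 from 7.85% ± 0.0439 to 10.9% ± 0.0198. The basement membrane class went from 3.28% and 3.27% to 6.09% and 6.20%, and the network-forming class, which is almost wholly COL8A1, from 0.617% and 0.654% to 2.79% and 3.01%. The transmembrane class, which is almost wholly COL23A1, went from 1.18% and 1.18% to 0.488% and 0.503%. The FACIT class went from 4.72% and 4.78% to 5.60% and 5.76%. The basement membrane and FACIT classes thus took larger shares although their summed CPM fell, from 828 to 673 and from 1233 to 606. The beaded filament class made up 22.9% and 22.5% in shControl and 23.5% and 23.1% in shYEATS2, and its groups overlapped when counts were not divided by length. With 2 libraries a condition, an exact permutation test cannot give a two-sided p under 0.33 for any of these shares.

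**Figure D4:**
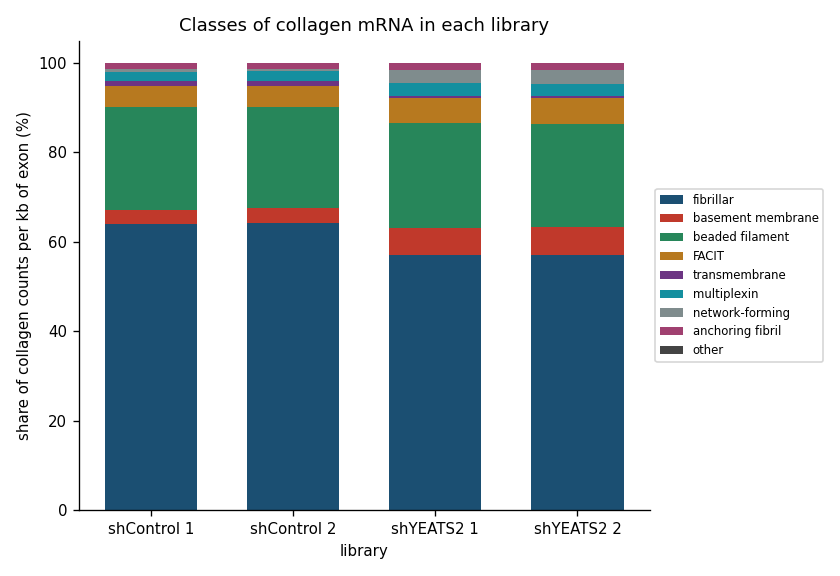
Share in percent of each collagen class in the collagen counts per kb of exon, 1 stacked bar for each library. The fibrillar part is shorter in both shYEATS2 libraries (57.0% and 57.2%) than in both shControl libraries (63.9% and 64.3%), and the basement membrane and network-forming parts are taller.

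Ratios of chains within a library do not depend on the scaling between libraries, and 8 pairs were compared. The log2 ratio of COL1A1 to COL1A2 was 0.36 ± 0.03 in shControl and 0.38 ± 0.02 in shYEATS2 (SD, n = 2 each), a difference of 0.02 that was within the spread (exact permutation test, two-sided p = 0.667). The other 7 pairs had groups that did not overlap, each with the smallest two-sided p of 0.33 that the exact permutation test allows here. COL6A1 had 685 and 575 times as many counts per kb as COL6A3 in shControl and 47.4 and 44.3 times as many in shYEATS2, a difference of −3.77 in the log2 ratio. The ratio of COL6A1 to COL6A2 moved much less, from 0.603 and 0.594 to 0.519 and 0.517, a log2 difference of −0.21. COL3A1 fell against COL1A1, from 0.489 and 0.498 to 0.348 and 0.355 per kb, a log2 difference of −0.49. COL4A5 to COL4A6 went from 7.93 and 7.72 to 4.91 and 5.34, a log2 difference of −0.61. The log2 ratio differed by −0.14 for COL4A1 to COL4A2 and by 0.10 for COL5A1 to COL5A2. For COL8A1 to COL8A2 the difference was 1.27, with only 2 to 14 counts of COL8A2 in each library. The ratio itself depends on the length used, and with the longest coding transcript COL1A1 to COL1A2 in shControl was 0.916 in place of 1.26 to 1.30.

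**Figure D5:**
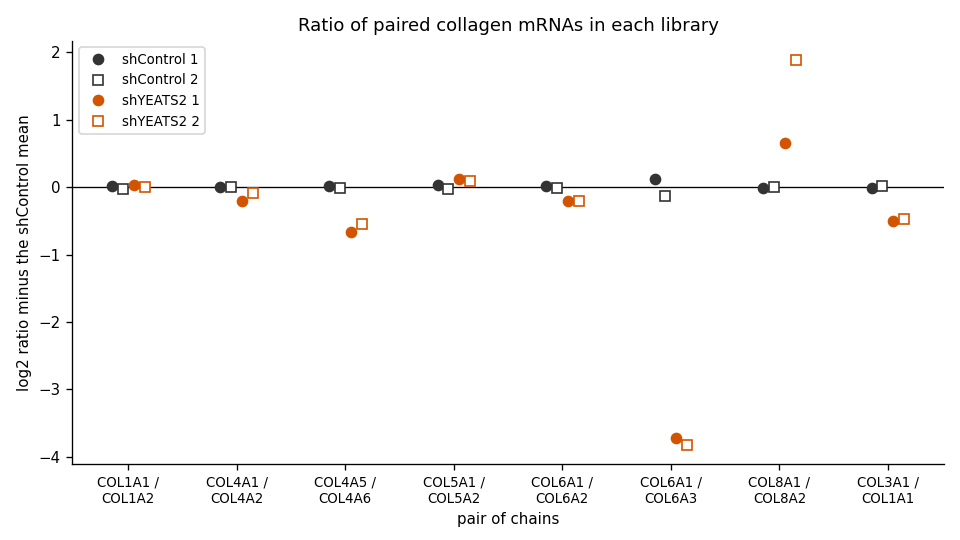
Log2 ratio of the counts per kb of paired collagen genes in each library, minus the mean of the shControl libraries, for 8 pairs. The COL1A1 to COL1A2 ratio stays close to 0 in all libraries, and the COL6A1 to COL6A3 ratio lies lower in both shYEATS2 libraries, with a mean difference of −3.77.

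The genes that make, process and bind collagen are given for context. Of 19 genes for the modification and folding of collagen chains, 18 were tested, 11 were lower and 1 was higher, beside 23.6% and 22.6% of all tested genes, with a median log2 fold change of −0.29. The largest changes were in PPIB (−0.99, SE 0.06), a prolyl isomerase of the endoplasmic reticulum, PLOD2 (−0.93, SE 0.06), a lysyl hydroxylase, and P4HA2 (−0.91, SE 0.06), a subunit of prolyl hydroxylase. Of 7 tested genes for procollagen processing, 3 were lower and 1 was higher, led by TLL1 (−1.81, SE 0.12), ADAMTS2 (−0.96, SE 0.06), which trims the amino end of procollagens, and BMP1 (−0.49, SE 0.07), which trims the other end. Of 4 tested lysyl oxidases, which crosslink the fibrils, LOX was higher (0.49, SE 0.06) and LOXL1 (−0.47, SE 0.10) and LOXL2 (−0.21, SE 0.06) were lower.

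The counts of the other lists are read beside the same shares of all tested genes, 23.6% lower and 22.6% higher (32.1% and 25.5% at 10 CPM or more). Of 10 tested fibril-associated matrix proteins, 5 were lower and 1 was higher. DCN (decorin) fell from 316 and 327 CPM to 85.7 and 81.8 CPM (−1.94, SE 0.06), and DPT (dermatopontin, −1.88, SE 0.09) and LUM (lumican, −0.94, SE 0.06) fell too. Of 10 tested collagen receptors, 5 were lower and 1 was higher. The receptor kinase DDR2 rose from 6.31 and 7.44 CPM to 19.7 and 23.4 CPM (1.64, SE 0.12), and the integrin chains ITGA11 (−0.53, SE 0.08) and ITGA10 (−0.37, SE 0.11) fell. The 3 tested collagen-degrading proteases were all lower, with MMP2, a gelatinase, at −1.29 (SE 0.06) and MMP14, its membrane-bound activator, at −1.19 (SE 0.06). Of 14 tested partners of collagen IV in basement membranes, 9 were lower and 2 were higher, among them NID1 (−1.46, SE 0.09), LAMA5 (−0.80, SE 0.07) and AGRN (−0.56, SE 0.07), all lower. PXDN, the peroxidase that crosslinks collagen IV, went from 1.90 and 1.56 CPM to 17.2 and 15.5 CPM (3.24, SE 0.16), and it is named here after its value was seen.

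Markers of epithelial cells and fibroblasts also changed. Their counts are read beside 23.6% of all tested genes called lower and 22.6% called higher. The summed level of the 9 fibroblast markers was 880 to 909 CPM in shControl and 376 to 379 CPM in shYEATS2, and of the 7 tested, 6 were lower. LUM, DCN and DPT belong to this list too and make up most of that sum. FAP was the tested fibroblast marker that was not called (−0.11, SE 0.12). The summed level of the 9 squamous epithelial markers was 418 to 425 CPM in shControl and 197 to 212 CPM in shYEATS2. Most of it came from KRT8 and KRT18, keratins of simple epithelia. Of the 8 tested, 6 were lower, among them KRT5 (−3.78, SE 0.18), CDH3 (−2.88, SE 0.14), KRT8 (−1.16, SE 0.06) and KRT18 (−0.55, SE 0.07), and CDH1 was higher (2.91, SE 0.36). The summed levels of the smooth muscle, endothelial and immune markers were at most 37.9, 36.6 and 1.85 CPM in any library. Of 5 tested smooth muscle and pericyte markers, TAGLN was lower (−1.39, SE 0.10) and RGS5 higher (0.75, SE 0.19), with a median of 0.14. Of 3 tested endothelial markers, KDR was lower (−1.004, SE 0.09) and TEK higher (1.83, SE 0.71), with a median of 0.08. TEK had only 4 and 6 counts in shControl and 9 and 7 in shYEATS2. It met the count filter only in shYEATS2, so it could enter the test only by being higher there. Of the immune markers only CD14 was tested, and it was lower (−1.08, SE 0.36). The part of these markers in the collagen results was not tested.

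The RefSeq promoter windows, from 250 bases before to 50 bases after a start site, had an entry for 32 of the 44 collagens. Of the 16 genes called lower, 11 had an entry, and 10 of these held a GC box in at least 1 window. Of the 8 called higher, 7 had an entry and 3 of these held it. Of the 9 not called, 9 had an entry and 6 held it, and 21 of all 32 members with an entry did. Counted by window, the GC box stood in 92.3% for lower genes and 33.3% for higher genes. It stood in 54.5% of all collagen windows and 45.0% of all RefSeq windows. By window, the median content of G and C was 73.7% over 13 windows of lower genes, 63.3% over 9 windows of higher genes and 58.7% over all 35116. COL1A1, COL1A2, COL3A1, COL5A2, COL6A1 and COL8A1 have no entry in the table. These are descriptions of letters in a window and carry no test, and members with back-to-back start sites share bases. All 16 lower genes had a mean of at least 10 CPM, whereas 5 of the 8 higher genes were under it. Level and direction are thus mixed in these shares, and windows of genes at a like level were not compared. COL1A1, COL1A2, COL6A1, COL6A2, COL12A1, COL16A1 and COL23A1 also stand in the study's own list of 147 genes with lower mRNA and less crotonylated histone H3 lysine 27 at their promoter. The study counted a site as changed at a p-value under 0.05 by DiffBind and named no adjustment. These are 7 of the 16 collagens called lower. The matching share of all genes called lower is not given here, so whether 7 is more than expected was not tested. The other 9 collagens called lower, COL3A1 among them, are not in it. That list was chosen partly on these libraries, so it is not independent evidence of their direction.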

How the data were processed

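RNA-seq was performed on 4 libraries of BICR10 cells, 2 shControl and 2 shYEATS2. Per the labels, libraries were made with a stranded mRNA kit and read as pairs of 150 bp. The authors used STAR for alignment to GRCh38 and HTSeq for counting per gene, and the deposited values are whole-number counts without normalization. The release of the annotation and whether counting used strand are not given in the sources used here. Reads assigned to no gene (7.64% to 8.57% of the tally) were left out.

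The name rule that defines the members and the gene lists were chosen with earlier results of these data known. Genes were filtered with filterByExpr (17058 kept), TMM-scaled, and tested in edgeR 4.0.16 (robust quasi-likelihood fit, Benjamini-Hochberg over all tested genes, threshold 0.05) in R 4.3.3. With 2 libraries a condition, each adjusted p-value leans on edgeR's pooled estimate of variance. The procedure was tested on simulated data. Lengths and positions came from GENCODE 44 and promoters from RefSeq. Replicates differed by more than counting noise (chi-square per degree of freedom 5.39 to 5.95), and the totals of 11334133 to 47297970 counts limit precision for scarce genes. Every tested collagen is given with its change. From each other list, up to 3 called genes with the largest change and a mean of at least 10 CPM are named, besides the cell type markers and YEATS2. Alternatives were other scalings, filters, tests (DESeq2 1.42.0, limma-voom 3.58.1) and thresholds, thinned counts, a replicate block, each library left out and, for shares, other lengths. Those restricted to members of at least 10 CPM, or to members that met the count filter in both conditions, were chosen after seeing the data.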

Additional observations from a re-analysis of the deposited data

How the results depend on the processing

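Over 14 alternatives, 27 of the 33 tested collagen genes kept their side of the threshold wherever they could be tested, and 0 of the called genes reversed. COL4A3, COL4A4, COL4A5 and COL13A1 lost their call in at least 1 alternative, and COL19A1 and COL27A1 gained one without shYEATS2 library 2 and without shYEATS2 library 1. The number of collagens called lower ranged from 15 to 17. The number called higher was 4 with at least 10 counts in every library and with counts thinned to the smallest total, since fewer genes are then tested, 5 with DESeq2, where the cause was not tested, 3 among members of at least 10 CPM and 5 among members that met the count filter in both conditions. Leaving out each library gave 4 to 8 collagens called higher and 15 to 17 called lower. The 4 came without shYEATS2 library 1. A condition left with 1 library was assumed to vary like the other one.

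Scaling by library totals alone shifted the median of all genes to 0.13, with 2567 genes lower and 5441 higher in place of 4019 and 3857. The class medians moved with it, to −0.46 (fibrillar), 0.26 (basement membrane), −0.96 (beaded filament) and −0.17 (FACIT). The class medians rest on few genes, so which genes are tested sets several of them. With no filter they were 0.64 (beaded filament, where COL6A6 enters with 3 counts in all) and −0.026 (FACIT). With at least 10 counts in every library they were −0.23 (basement membrane), −0.44 (FACIT) and −2.49 (transmembrane, COL23A1 alone). With thinned counts they were −0.71 (fibrillar), −0.20 (basement membrane) and −2.38 (transmembrane). Among members of at least 10 CPM they were −0.82 (fibrillar), −0.23 (basement membrane), −0.85 (FACIT) and −2.49 (transmembrane). Among members that met the count filter in both conditions they were −0.18 (basement membrane), −0.44 (FACIT) and −2.49 (transmembrane). Leaving out each library gave −0.74 to −0.58 (fibrillar), 0.055 to 0.16 (basement membrane), −1.17 to −1.05 (beaded filament), −0.39 to −0.13 (FACIT) and −0.93 to 0.95 (transmembrane).

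With lengths of the longest coding transcript, the change of share was −9.06 percentage points for the fibrillar class (−7.02 by merged exons), 4.501 for basement membrane (2.87) and −0.663 for transmembrane (−0.685). With counts not divided by length it was −8.68, 4.74 and −0.343, and 0.800 for FACIT (0.926). The libraries numbered alike do not pair (correlation of deviations −0.018), and with a replicate block 16 collagens were lower and 8 higher, and 4142 and 3870 of all genes.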
